A study of Caenorhabditis elegans with 6 samples.

Results

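Homeobox genes encode transcription factors that bind DNA through a homeodomain, and 61 of them, together with the EBF-family factor gene unc-3, were followed in RNA from sorted RIS neurons and from whole L1 larvae of Caenorhabditis elegans. They were found by symbol in the authors' deposited table, as every ceh gene with a number plus 28 named genes, which gave 62 of its 12072 genes. By the same rule the gene name tables hold 92 genes, and the other 30, among them ceh-14, ceh-36, ttx-3, egl-5 and cog-1, are not in the table and were not analysed here. The labels list 3 libraries of RIS neurons from strain RIS::mKate, in which the flp-11 promoter drives the fluorescent protein, and 3 libraries of whole larvae of the wild-type strain N2. All animals were L1 larvae hatched overnight in M9 buffer after hypochlorite synchronization, so both groups hatched without food. RIS is a GABA and peptide neuron whose activity brings on sleep-like quiescence. RIS cells were dissociated and sorted by flow cytometry, whereas the whole larvae were frozen without dissociation. Neuron, strain and handling therefore cannot be told apart. For all 3 RIS libraries the isolation label and the sorting notes name the neuron AVK, and the notes mCherry, in place of RIS and mKate.

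The homeodomain genes of the worm fall into families. HOX genes pattern the body axis, with the TALE proteins as their DNA-binding partners. LIM, POU, paired-like and NK-like genes fix the identity of single neuron classes, muscles or glia, and an individual neuron class is typically specified by its own combination of them. CUT genes act in many neurons at once and maintain genes that all neurons use.

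The table gives 1 log2 fold change per gene, positive when higher in RIS, with an adjusted p, and no value per library, so the spread between libraries is seen only through the p-values and the approximate 95% intervals computed from them. Separate cultures are not named in the labels, and the p-values may therefore measure technical spread. The table does not state how many libraries entered the fit. For 170 genes the degrees of freedom were lower by 1, the loss given by a group of 2 libraries without reads, where 3 libraries would lose 2. Genes that mark RIS were higher in RIS for 8 of 8 measured, among them flp-11, whose promoter chose the sorted cells, and genes used by all neurons for 11 of 12. The peptide gene flp-1, which marks AVK, stood at 0.66 in the authors' deposited table, not called (adjusted p = 0.305). Taken relative to the median of the whole table, −0.78, it was called higher (1.44, adjusted p = 0.0452).

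Among the homeobox genes more were lower than higher in RIS. By the authors' deposited table, at an adjusted p below 0.05, 7 of 62 (11.3%) were higher, against 9.84% of all genes, and 21 (33.9%) were lower, against 26.4% of all genes. The share of higher genes lay near that of the whole table, and neither share was tested against it. The remaining 34 did not pass, 15 with a positive and 19 with a negative log2 fold change. The median log2 fold change was −1.34 over the 62 and −0.78 over all genes of the authors' deposited table. Relative to that all-gene median, 12 of the 62 (19.4%) were called higher, against 16.6% of all genes, and 18 (29.0%) lower, against 20.3%. A whole larva mixes every cell type, so fewer cells with a transcript and less of it per cell cannot be told apart in that group.

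**Figure D1:**
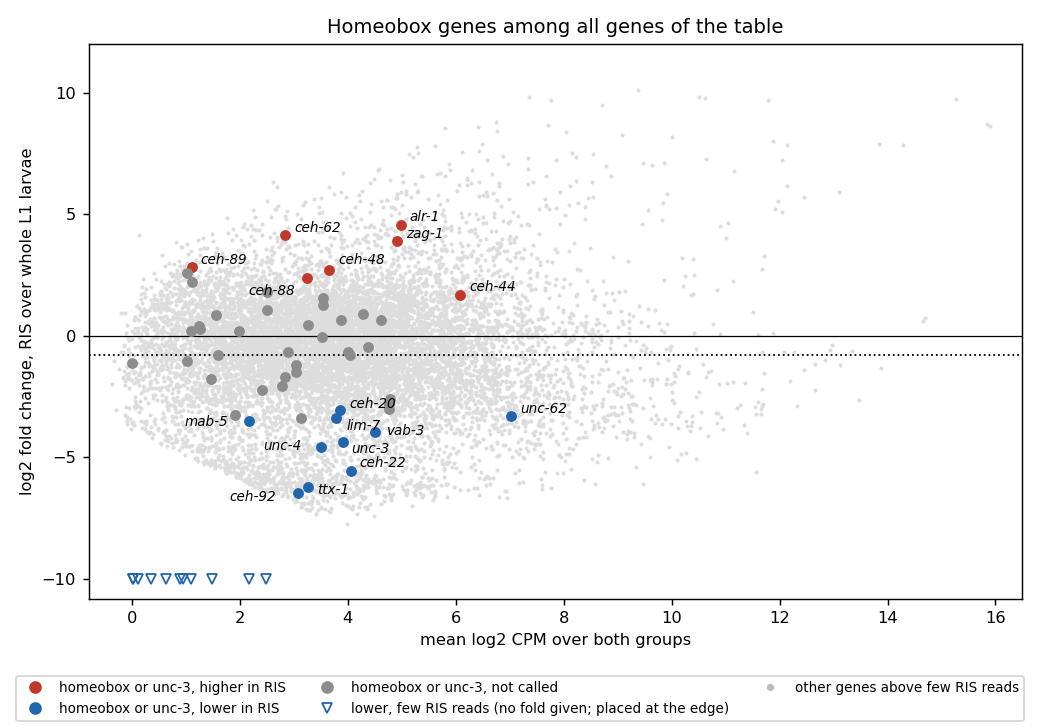
Mean log2 CPM over both groups (x axis) and log2 fold change of RIS over whole L1 larvae (y axis) for every gene above few RIS reads, with the homeobox genes and unc-3 coloured by call; the dotted line is the median of all genes, −0.78. The highest coloured points are alr-1 at 4.56 and ceh-62 at 4.14, and 11 genes at few RIS reads are drawn at the lower edge without a fold.

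Mean levels over both groups ran from 0.995 to 130.2 CPM in the authors' deposited table, with a median of 7.28 CPM, against 11.9 CPM for all genes. CPM is not scaled to gene length, so single genes are not compared by level. Of the 62, 19 lay at or above the median expression of the table. For the 34 uncalled genes the half-width of the approximate 95% interval had a median of 2.14 (log2) and ranged from 1.19 to 3.88, so smaller changes were often not detectable.

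The gene alr-1 had the highest fold of the set. It encodes an Aristaless-type paired-like factor known for its part in the differentiation of touch receptor and D-type GABA motor neurons. The authors' deposited table gave it a log2 fold change of 4.56 (23.5-fold, approximate 95% interval 3.30 to 5.81, adjusted p = 0.00324) with a mean level of 31.5 CPM, which ranked it 215th among 12072 genes by fold. In the coordinates of the table, for which no build is named, alr-1 (WBGene00044330) lies on chromosome X from 11121916 to 11125615.

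The ZEB-type zinc finger homeodomain gene zag-1, which acts in neuronal differentiation and axon guidance, was also higher. Its log2 fold change was 3.88 (14.7-fold, adjusted p = 0.00612, interval 2.37 to 5.40) with a mean level of 30.3 CPM in the authors' deposited table, on chromosome IV from 3855843 to 3861552. The NK-like gene ceh-62 had a mean of 7.18 CPM. For ceh-62 the authors' deposited table listed a log2 fold change of 4.14 (17.6-fold, adjusted p = 0.00611, interval 2.52 to 5.75), on chromosome II from 10805739 to 10808523. The intervals of alr-1, ceh-62 and zag-1 overlapped, so their order is not resolved. All 3 stayed at an adjusted p below 0.01.

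Among CUT genes 2 of 6 were higher and 0 lower, against 9.84% and 26.4% of all genes, with a median log2 fold change of 1.17. The ONECUT gene ceh-48, which is expressed across the nervous system, was higher, with a log2 value of 2.71 (6.56-fold, adjusted p = 0.0261, interval 0.98 to 4.45) per the authors' deposited table. The CUX-type gene ceh-44, likewise used across neurons, stood at 1.69 (3.22-fold, adjusted p = 0.0181, interval 0.71 to 2.66) per the authors' deposited table, and its mean level was 67.5 CPM. Its row covers more than the homeodomain transcript. The table's identifier for ceh-44 spans 2530615 to 2546420 on chromosome III, and the Ensembl annotation calls that identifier cone-1. RefSeq splits the same stretch of WBcel235 into ceh-44, ending at 2543068, and cone-1, ending at 2546421, from a shared start at 2530620. Reads of either transcript can thus have entered the value of ceh-44, and their shares were not tested.

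The other CUT genes did not pass, among them the broadly expressed ONECUT gene ceh-38. In the authors' deposited table ceh-38 had a log2 fold change of 0.66 at 24.5 CPM and ceh-21 one of 0.40. The dosage signal gene ceh-39, which takes part in counting X chromosomes for sex determination, had 2.57 (adjusted p = 0.113, interval −0.04 to 5.19) and ceh-41 had −1.76 (adjusted p = 0.306) per the authors' deposited table. The genes ceh-39, ceh-21 and ceh-41 are neighbours on X and each had a mean below 3 CPM, where the intervals were wide.

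LIM genes, which include terminal regulators of several neuron classes, had 0 of 4 higher and 1 lower, against 9.84% and 26.4% of all genes. The count of lower genes lay near that share. The lower one was lim-7, an Islet-type gene best known from the gonadal sheath, at −3.37 (adjusted p = 0.0125, interval −5.11 to −1.62) per the authors' deposited table. The gene lim-4, which specifies the AWB olfactory neuron, had a log2 fold change of 1.56 (adjusted p = 0.142, interval −0.17 to 3.29) per the authors' deposited table and was called higher relative to the all-gene median (2.34, adjusted p = 0.0438). Values of lin-11, a regulator of interneurons and of the vulva, and of the touch neuron gene mec-3 were 0.43 and −0.81 in the authors' deposited table, neither called. A further LIM gene outside the set, lim-6, which is expressed in RIS, lay well above all of them at 7.22 in the authors' deposited table.

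By the deposited edgeR-format test 0 of 3 POU genes were called, against 9.84% of all genes higher and 26.4% lower. Of the 3, 1 had an unadjusted p below 0.05. That was unc-86, which specifies touch receptor and many other neurons, at −2.58 (adjusted p = 0.0595, interval −4.67 to −0.49) per the authors' deposited table. The excretory cell regulator ceh-6 was at −3.36 (interval −6.93 to 0.21) and ceh-18 at −0.66 in the authors' deposited table.

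Among paired-like and PAX genes 1 of 11 was higher, alr-1, and 3 were lower, shares near the 9.84% and 26.4% of all genes. The Otx-type gene ttx-1, which specifies the thermosensory neuron AFD, was lower, with a log2 value of −6.21 (adjusted p = 0.0107, interval −9.28 to −3.13) per the authors' deposited table. For unc-4, which sets the synaptic inputs of A-type motor neurons, the authors' deposited table gave −4.55 (adjusted p = 0.0240, interval −7.39 to −1.72). The Pax6 homologue vab-3, which patterns the head, was at −3.94 (adjusted p = 0.0117, interval −5.94 to −1.94) per the authors' deposited table.

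The other paired-like genes did not pass. In the authors' deposited table the Rx-type gene ceh-8 had a log2 fold change of 2.22 (adjusted p = 0.0823) and unc-42, a regulator of command interneurons and of AVK, one of 1.27 (adjusted p = 0.163). Both were called higher relative to the all-gene median, at 3.0 (adjusted p = 0.0309) and 2.05 (adjusted p = 0.0415). The gene unc-30, which turns on GABA synthesis in D-type motor neurons, stood at −0.44 (adjusted p = 0.658, interval −2.07 to 1.18) per the authors' deposited table. Its sign is positive relative to the all-gene median. The Otx-type gene ceh-37 came nearest to a call among the uncalled genes, at −3.03 (adjusted p = 0.0531) per the authors' deposited table. Further values there were −1.47 for the Goosecoid-type gene ceh-45, −1.13 for ceh-10, which acts in the ALA, AIY and CAN neurons, and −0.77 for dsc-1, a gene of the defecation motor program.

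**Figure D2:**
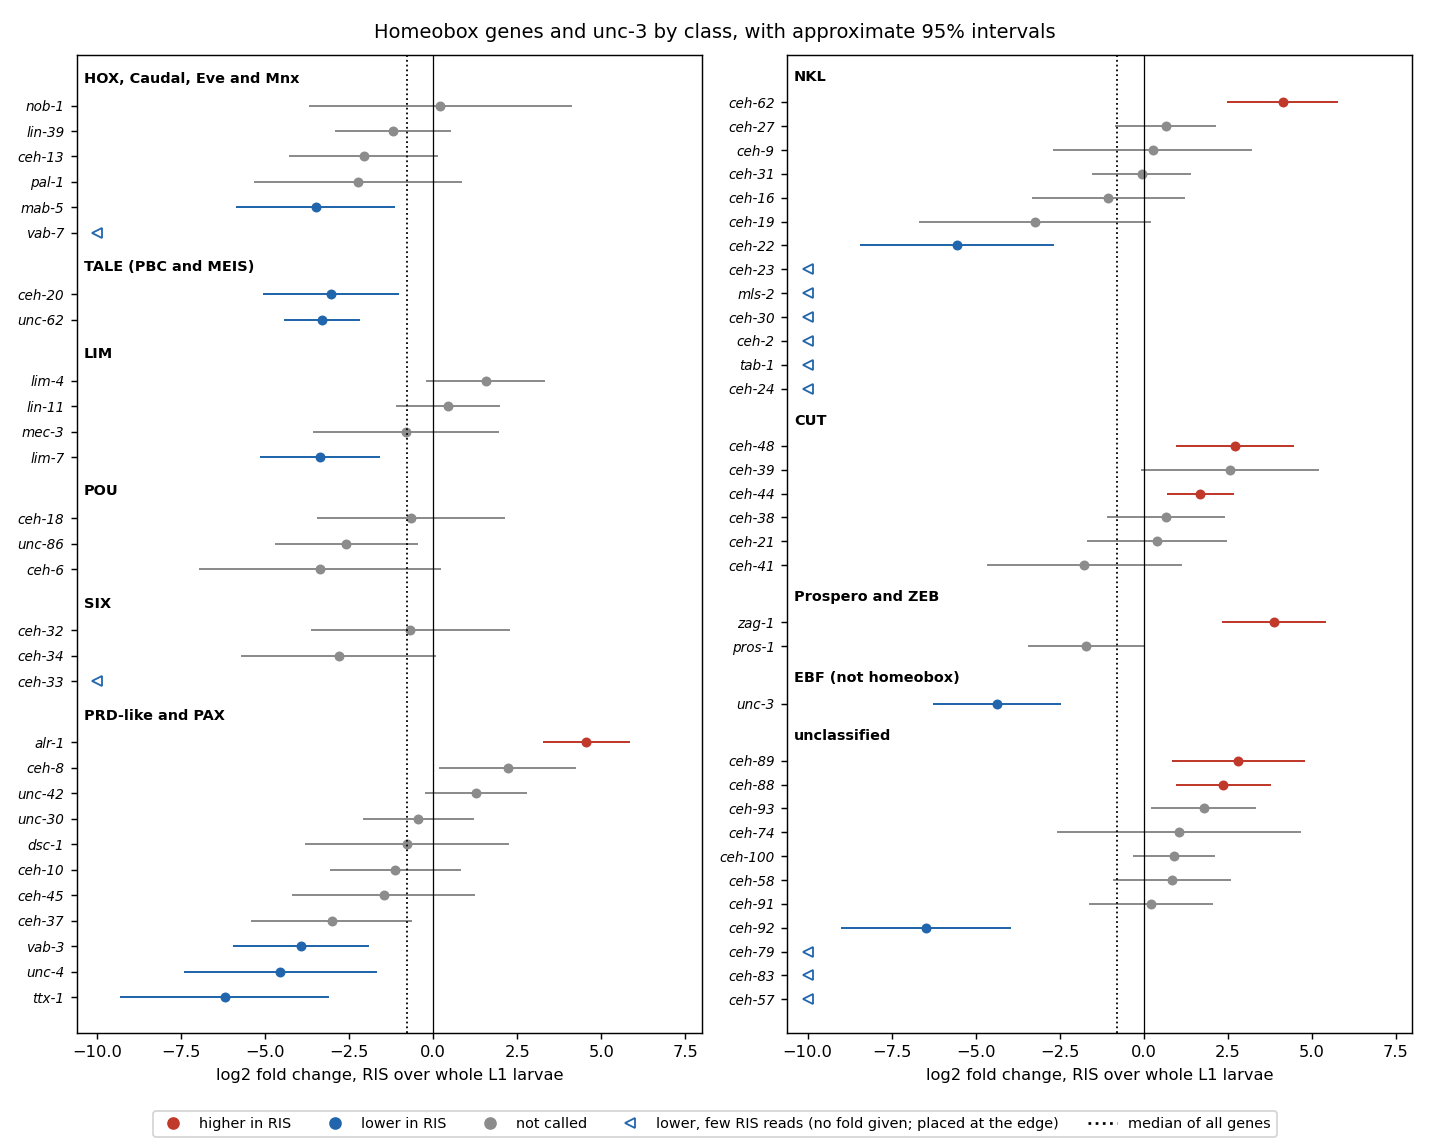
Log2 fold change of RIS over whole L1 larvae (x axis) for each of the 62 genes, grouped by class, with approximate 95% intervals as bars; the solid line marks 0, the dotted line the median of all genes, and triangles at the left edge mark 11 genes at few RIS reads, for which no fold is given. Red points, from ceh-44 at 1.69 to alr-1 at 4.56, are called higher, and most grey intervals span 0.

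NK-like genes held 7 of 13 lower and 1 higher, ceh-62, against 26.4% and 9.84% of all genes. Of the 7 lower, 6 were at few RIS reads, and the other was ceh-22. The largest group of genes at few RIS reads was here. They were mls-2, ceh-23, ceh-2, ceh-30, tab-1 and ceh-24, 6 of 13, at means of 1.01 to 2.78 CPM. Known sites of action are glia, the AWC neuron and the postembryonic mesoderm for the HMX-type gene mls-2, the AIY interneuron for ceh-23, and pharyngeal neurons for the EMX-type gene ceh-2. The Nkx2-type gene ceh-22, a regulator of pharyngeal muscle, was lower, with a log2 value of −5.56 (adjusted p = 0.0121, interval −8.42 to −2.70) per the authors' deposited table, at 16.6 CPM. A non-coding gene on the opposite strand overlaps 23.4% of the exon bases of ceh-22, and no source used here says whether counting used strand.

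Not called were 5 NK-like genes. By the authors' deposited table they were ceh-27 at 0.67, ceh-9 at 0.27, the BarH-type gene ceh-31 at −0.05, the Engrailed-type gene ceh-16 at −1.05 and ceh-19 at −3.24, with adjusted p from 0.125 to 0.955. The interval of ceh-31 reached from −1.50 to 1.39, among the narrower ones.

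HOX genes and their relatives held 0 of 6 higher and 2 lower, against 9.84% and 26.4% of all genes. The posterior HOX gene mab-5, which patterns the posterior body, was lower, with a log2 value of −3.50 (adjusted p = 0.0308, interval −5.83 to −1.16) per the authors' deposited table. The Even-skipped homologue vab-7, which acts in the posterior body and in motor neurons, was lower at few RIS reads (adjusted p = 0.0381). Relative to the all-gene median both calls ended, with adjusted p of 0.0702 for mab-5 and 0.0650 for vab-7. The labial-type gene ceh-13 had −2.07 (adjusted p = 0.126), the mid-body gene lin-39 had −1.20 (adjusted p = 0.240) and the Caudal gene pal-1 had −2.23 (adjusted p = 0.225) per the authors' deposited table. The Abdominal-B-type gene nob-1 stood at 0.21 with an interval of −3.67 to 4.08, the widest of the uncalled genes.

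Both measured TALE genes were lower, against 26.4% of all genes. The MEIS gene unc-62, which with the PBC proteins forms complexes with HOX factors, had a log2 fold change of −3.31 (9.93-fold lower, adjusted p = 0.00465, interval −4.42 to −2.21) per the authors' deposited table, with a mean of 130.2 CPM. The PBX-type gene ceh-20 was at −3.03 (adjusted p = 0.0291, interval −5.03 to −1.04) per the authors' deposited table. Relative to the all-gene median the call on ceh-20 ended (adjusted p = 0.0766), while that on unc-62 did not. A non-coding gene on the opposite strand overlaps 10.5% of the exon bases of ceh-20.

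Sine oculis-type genes held 1 lower of 3, against 26.4% of all genes. The lower one was ceh-33, at few RIS reads with a mean of 5.63 CPM and an adjusted p of 0.00828. Its neighbour ceh-34, which specifies pharyngeal neurons, was at −2.82 (adjusted p = 0.113, interval −5.68 to 0.04) and the head patterning gene ceh-32 at −0.68 in the authors' deposited table. The Prospero gene pros-1, which acts in sensory glia, was not called at −1.70 (adjusted p = 0.113, interval −3.42 to 0.02) per the authors' deposited table.

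The gene unc-3 carries no homeobox and encodes the worm's EBF factor, the terminal selector of cholinergic motor neurons. The authors' deposited table listed it at −4.36 (20.6-fold lower, adjusted p = 0.00710, interval −6.24 to −2.49) with a mean of 15 CPM.

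A group of 11 ceh genes was placed in no class. Of these 2 were higher and 4 lower, against 9.84% and 26.4% of all genes. Higher were ceh-89 at 2.82 (adjusted p = 0.0348, interval 0.87 to 4.77) and ceh-88 at 2.37 (adjusted p = 0.0190, interval 0.98 to 3.75) per the authors' deposited table. Exons of C49C3.6 on the same strand cover 32.5% of the exon bases of ceh-88, and that neighbour was at −0.53 (adjusted p = 0.611) per the authors' deposited table. Lower were ceh-92, at −6.48 (adjusted p = 0.00597, interval −8.98 to −3.98) per the authors' deposited table, and, at few RIS reads, ceh-79, ceh-83 and ceh-57. Not called in the authors' deposited table were ceh-93 (1.79), ceh-74 (1.05), ceh-100 (0.89), ceh-58 (0.84) and ceh-91 (0.21), and relative to the all-gene median ceh-93 and ceh-100 were called higher.

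**Figure D3:**
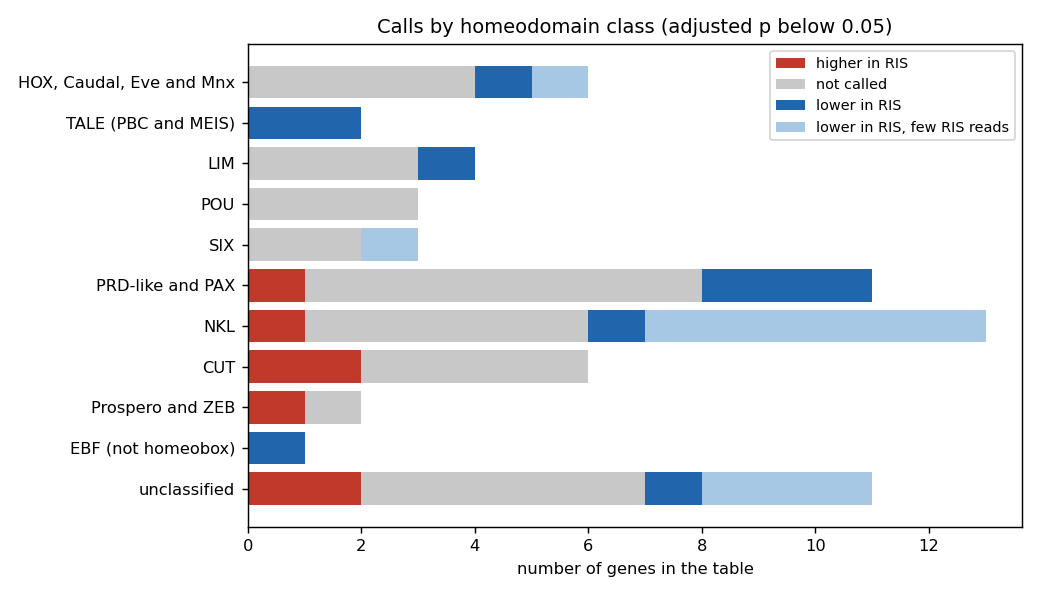
Number of genes of the table (x axis) in each class (rows) that were higher in RIS, not called, lower in RIS, or lower at few RIS reads. CUT genes hold 2 higher and 0 lower of 6, and NK-like genes 1 higher and 7 lower of 13, 6 of these 7 at few RIS reads. Of all genes 9.84% were higher and 26.4% lower.

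Genes near the limit of detection in RIS made up much of the lower group. A gene was taken to have few RIS reads when the sum of its log2 fold change and log2 CPM lay near or below the position that 3 reads would give. Of the 62 genes 11 (17.7%) were of this kind, against 8.08% of all genes, and all 11 were among the 21 lower ones. Over the whole table, leaving out its 976 genes at few RIS reads cut the lower genes from 3183 to 2216. Genes of this kind were thus mostly lower there too. Leaving out such genes, which removes genes for being low in RIS, 10 of 51 (19.6%) were lower, against 19.97% of all genes left. Mean levels of the 11 were 1.01 to 5.63 CPM and their adjusted p-values 0.00484 to 0.0381. No fold is given for them, since it would depend on a prior count that the table does not state. The 10 other lower genes were ttx-1, ceh-92, ceh-22, unc-4, unc-3, vab-3, mab-5, lim-7, unc-62 and ceh-20. Folds of ceh-92 and ttx-1, the nearest above the limit, are less certain than the others.

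For several of the factors, genes of the cells in which they act could be set beside them. Counts of such genes are read against the 9.84% of all genes higher and 26.4% lower. The gene ttx-1 was lower, as were 3 of 4 AFD genes, the guanylate cyclase genes gcy-18 (−5.87), gcy-23 (−5.63) and gcy-8 (at few RIS reads), in the authors' deposited table. Of these, gcy-23 lay close above the limit for few RIS reads, so its fold is less certain. With ceh-22, all 3 of the pharyngeal muscle genes myo-2 (−5.13), myo-1 (−3.93) and tnc-2 (−2.59) were lower in the authors' deposited table. Where mec-3 and unc-86 were not called, 3 of 6 touch neuron genes were lower and 1 higher, the alpha-tubulin gene mec-12 (3.21), the lower ones including mec-18 (−3.43) and the channel gene mec-4 (−2.79), in the authors' deposited table. Of those 3 lower genes 1, mec-18, was still called lower against the all-gene median.

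Calls on genes of the cells differed from the call on the factor for unc-3, and in part for unc-30 and ceh-10. Of all genes 9.84% were higher and 26.4% lower. While unc-3 was lower, 0 of 6 measured genes of cholinergic motor neurons were lower and 1 was higher, the receptor gene acr-2 (4.21), in the authors' deposited table. Next to an uncalled unc-30, the GABA genes unc-47 (6.27) and unc-25 (6.16), which RIS also uses, were higher and acr-14 (−3.75) lower in the authors' deposited table. Both GABA genes are also among the RIS markers counted above. Beside an uncalled ceh-10, 4 of 8 genes of the ALA neuron were higher and 2 lower, per the authors' deposited table. Among the higher ones were ida-1 (5.82), let-23 (4.34) and nlp-8 (7.34), the last also one of the RIS markers counted above. The 2 lower ones, named beyond the 3 of lowest adjusted p, were ver-3 (−5.17) and flp-13 (−4.72) in the authors' deposited table. The gene flp-13 lay close above the limit for few RIS reads, so its fold is less certain. Of 3 measured AIY genes kal-1 (3.61) was higher and ceh-23 lower, at few RIS reads, in the authors' deposited table. Neither unc-42 nor the AVK peptide gene flp-1 was called as deposited, and both were called higher relative to the all-gene median. These are values side by side, and no test related a factor to a target.

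**Figure D4:**
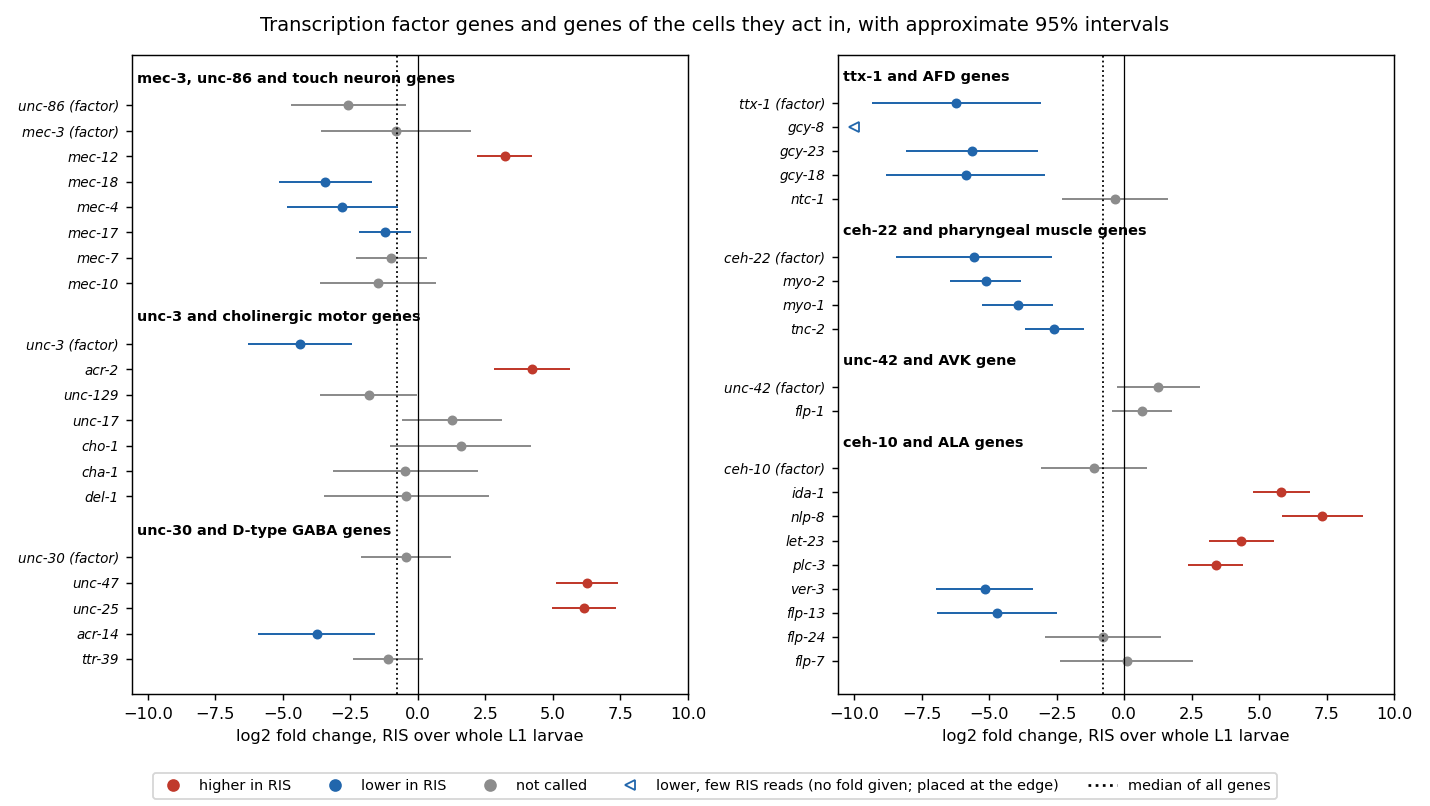
Log2 fold change of RIS over whole L1 larvae (x axis) for 8 transcription factor genes, marked as factor, and for genes of the cells in which they act, with approximate 95% intervals; the dotted line is the median of all genes. The ceh-22 group is lower throughout and the ttx-1 group lower apart from ntc-1, whereas unc-47 at 6.27 and unc-25 at 6.16 are higher beside unc-30 at −0.44.

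Homeobox genes outside the naming rule went both ways too. Of 10 measured, 2 were higher, lim-6 and the Iroquois gene irx-1 (4.0, interval 2.98 to 5.01, adjusted p = 0.00279), and 4 were lower, eyg-1 (−5.62), dve-1 (−3.87), duxl-1 (−3.61) and hmbx-1 (−3.09) in the authors' deposited table. All 4 lower genes of that list are named, beyond the 3 of lowest adjusted p, after their values were seen. With a mean of 3.35 CPM, eyg-1 lay only just above the limit for few RIS reads, which makes its fold less certain. The calls on dve-1 and hmbx-1 ended relative to the all-gene median. The median of all 10 on the list was −2.81, against −0.78 for all genes.

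Genes listed as cofactors of homeodomain proteins were mostly uncalled, with 0 of 8 higher and 1 lower, against 9.84% and 26.4% of all genes. The lower one was mab-9 (−4.88 in the authors' deposited table), which encodes a T-box factor rather than a cofactor. The LIM-binding cofactor gene ldb-1 (1.46, adjusted p = 0.0565) and the Groucho corepressor gene unc-37 (1.12, adjusted p = 0.118) were called higher only relative to the all-gene median. Among 14 chromatin genes of the Polycomb and Trithorax type, several of which act on HOX genes, 3 were higher and 0 lower, against 9.84% and 26.4% of all genes, with a median of 0.68. Relative to the all-gene median 5 were called higher, against 16.6% of all genes by that test. Higher as deposited were sop-2 (2.0), set-16 (1.74) and lin-59 (1.72) per the authors' deposited table.

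Of markers of other tissues 5 of 6 pharyngeal, 5 of 6 intestinal, 4 of 6 hypodermal, 4 of 6 body wall muscle and 2 of 7 glial genes were lower, against 26.4% of all genes, a share that the glial count lay near. The lower pharyngeal genes include myo-2, myo-1 and tnc-2, already given beside ceh-22. Of all these markers only pha-4, a pharyngeal factor gene named after its value was seen, was higher. Relative to the all-gene median 3 of 6 intestinal genes were lower, against 20.3% of all genes by that test. The muscle myosin gene unc-54, also named after its value was seen, was called higher by it (1.76, adjusted p = 0.0139). The table holds no level per group, so the part of these tissues in the lower values of genes such as ceh-22, mab-5 or unc-62 was not tested.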

How the data were processed

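RNA of 3 libraries of sorted RIS neurons and 3 libraries of whole L1 larvae was measured by sequencing, with groups taken from sample titles. cDNA was made with a low-input kit and sequenced on an Illumina HiSeq, per the labels' protocols. Not given in the sources used here are the aligner, the counting tool, its strand setting and the build. One table deposited by the authors was used. Its columns, per the file headers, are the log2 fold change, the log2 CPM averaged over libraries, the F statistic as a score, the p-value and its adjusted form, as edgeR's quasi-likelihood test writes them. It has 0 columns per library, so depth is unknown.

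The members, classes and lists were chosen with earlier results of these data known, and support no claim of independence. Genes were called at the deposited adjusted p below 0.05, those called were named with values, the uncalled in their class, and of other lists up to 3 by adjusted p. Degrees of freedom were recovered from the F score and p deposited by the authors (6.76 for 11902 genes, 5.76 for 170). Dividing the absolute log2 fold change by the square root of F gave a standard error, and from it the 95% intervals and the test relative to the all-gene median, adjusted over 12072 genes by Benjamini-Hochberg. Genes without RIS reads had a log2 fold change plus log2 CPM of −8.82. Single reads lay up to 2.95 above it and 3 reads, by extrapolation, up to 4.40, and genes below that plus a margin of 0.5 were called genes at few RIS reads (976). No sequence was used. All 62 identifiers were found on the same chromosome in Ensembl release 115 (WBcel235), 35 with a shared start or end. Of them 16 share exon bases with another gene. Tools were matplotlib 3.10.9, scipy 1.17.1, pandas 2.3.3 and numpy 2.4.6 under Python 3.11.15. The code for the recovered errors and the test was run on simulated fold changes with known errors. That simulation held no counts and built F by the same formula. It therefore cannot show how well the errors hold for the deposited F, above all for low genes.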

Additional observations from a re-analysis of the deposited data

How the results depend on the processing

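At an adjusted p below 0.01, 3 of the 62 genes were higher and 10 lower (13 in all), against 4.90% and 14.2% of all genes. Among the 19 at or above median expression 4 were higher and 6 lower (10 in all), against 15.2% and 23.7%, with a median log2 fold change of −0.81. Without genes at few RIS reads 10 of 51 (19.6%) were lower, against 19.97% of all genes. In that setting 17 were called in all, with a median of −0.68. It removes genes for being low in RIS. All 11 it removed had been called lower, as had most of those it removed from the whole table. Relative to the all-gene median 12 were higher and the median was −0.56. There 5 uncalled genes changed sign, ceh-31 (0.72), unc-30 (0.33), ceh-18 (0.12), ceh-32 (0.10) and dsc-1 (0.0042), 5 gained a call and 3 lost one, since the zero point moved. A minimum fold of 2 and a recomputed adjustment changed no call of the 62. Scaling, filters on counts and leaving out libraries could not be run without counts. No paired analysis was possible because the table has no columns per library. Depth is unknown, and the intervals of low genes limit what can be called.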

Other observations

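Homeobox genes that lie next to each other in the genome did not always share a call. By the authors' deposited table, whose build is not stated, ceh-57 (at few RIS reads) lies 2032 bases from ceh-58 (0.84) on chromosome II, and ceh-30 (at few RIS reads) lies 3099 bases from its paralogue ceh-31 (−0.05) on X. Likewise ceh-33 (at few RIS reads) lies 3627 bases from ceh-34 (−2.82) on V, and ceh-92 (−6.48) lies 27625 bases from ceh-91 (0.21) on III, in the authors' deposited table. In each of these pairs 1 gene was called lower and the other was not called, and the difference within a pair was not tested. The HOX pair lin-39 (−1.20) and ceh-13 (−2.07), 18985 bases apart on III, had overlapping intervals in the authors' deposited table, and neither was called. In the remaining pairs within 50 kb neither gene was called. These were ceh-27 and ceh-32, ceh-41 and ceh-21, ceh-21 and ceh-39, and ceh-18 and lim-4.

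By chromosome, 15 of the 62 genes lie on X and 15 on III. On IV 3 of 6 were higher (zag-1, ceh-48 and ceh-88) and 0 lower, against 8.82% and 25.5% of all genes there. On V 0 of 11 were higher and 6 lower, against 7.89% and 35.2% of all genes there. The numbers per chromosome are small and no test was made.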
